A study of Sus scrofa with 36 samples.

Results

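The annexins of pig liver were followed here through 8 genes: ANXA1, ANXA2, ANXA4, ANXA5, ANXA6, ANXA7, ANXA11 and S100A10, the last being the small partner protein of ANXA2. Members were taken by gene name from a 1-colour Agilent pig array and a probe was kept if at least 6 of the 36 arrays gave it a signal well above background. That call is a reading of the same arrays, so detection is a description and not a finding. The array carried 35 probes for these genes, of which 34 were kept, out of 44796 kept probes of 60305 on the array and 10506 symbols among those kept. Of the 34, 33 were well above background on all 36 arrays. The member just inside the limit was 1 ANXA2 probe, well above background on 23 arrays, and the only one outside it was 1 ANXA7 probe, well above background on 1 array.

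Liver RNA came from 36 castrated male pigs of 3 genetic groups. These were the selected breed Large White (LW), the local tropical breed Creole (CR) and the cross of both (F1), each sampled at thermoneutrality (TN, 24 °C) or under heat stress (HS), with 6 animals in each of the 6 groups. The labels of the HS animals give 30 °C and the growth protocol gives 32 °C, with an exposure of up to 5 days that is not given per animal, so these animals are called HS here. The labels give neither the age of the animals nor their litter, pen or parents. The methods describe 3 blocks of littermates per breed, with pigs of a breed sharing pens, so the animals of a breed are not all independent. The tests below take each animal as independent. Their SEs and p-values leave out likeness within litters and pens and may be too small. The methods place the slaughter of the HS animals after that of the TN animals, so the day of slaughter and the temperature cannot be told apart. All 8 hepatocyte markers on the array were kept, with a mean log2 signal of 16.61 to 16.84 per animal, so the defining genes of the labelled tissue were present.

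The 36 arrays lay on 5 slides, 4 arrays on slide 1 and 8 on each of the others, each slide being split evenly between TN and HS, and no spot was saturated. On the first principal component of all kept probes, which held 18.6% of the variance and set LW apart from CR, 5 animals lay away from the rest of their breed. LW TN replicates 1 and 6 lay at −4.83 and −3.04, while the other 10 LW animals lay between −44.2 and −24.8. F1 TN replicate 3 and F1 HS replicates 1 and 2 lay at −18.1, −17.0 and −21.3, against −1.31 to 36.9 for the other 9 F1 animals. In the sample titles, the animal numbers of F1 HS replicates 1 and 2 lie among those of LW. The numbers of LW TN replicates 1 and 6 lie among those of F1, while F1 TN replicate 3 is numbered among the other F1 animals. Whether the labels of these 5 animals are right was not tested, so all breed and temperature contrasts below stand for the groups as labelled. The number of called probes in each contrast is given with and without them. Since they were singled out on a component that itself separates the breeds, leaving them out widens breed differences by construction.

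Annexins are proteins that bind acidic membrane phospholipids when calcium rises, and they take part in membrane repair, vesicle traffic and the scaffolding of the cell cortex. ANXA2 binds a dimer of S100A10 to form a complex at the plasma membrane that also docks plasminogen and its activator. ANXA1 is best known as a glucocorticoid-induced protein of leukocytes that acts through formyl peptide receptors and restrains inflammation, and ANXA5 binds phosphatidylserine on dying cells. Every value below is a log2 normalized signal of a probe, or a difference between such values, and a probe's level was never set against that of another probe, since brightness depends on the probe.

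The probe sequences are shown because the ANXA1, ANXA2 and ANXA5 results rest on them. The ANXA2 gene lies on chromosome 1 from 111588721 to 111635064 in assembly Sscrofa11.1, and the 3 ANXA2 probes given first lie at bases 495, 965 and 1281 of the transcript named by the array design, without overlap, so they read the same RNA at separate places.

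ANXA2 at 495: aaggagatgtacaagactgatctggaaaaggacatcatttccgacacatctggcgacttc
ANXA2 at 965: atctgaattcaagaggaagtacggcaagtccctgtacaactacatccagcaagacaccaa
ANXA2 at 1281: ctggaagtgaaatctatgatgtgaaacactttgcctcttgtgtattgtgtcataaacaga

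ANXA1 lies on chromosome 1 from 226414200 to 226431963 and had 9 kept probes, which were not 9 separate readings. One pair held the same 60 bases, shown in capitals throughout, and so measured the same stretch on separate spots. A further pair, at bases 570 and 573, shared 57 bases, in capitals below, and 1 more pair at bases 1436 and 1438 was identical at 51 of 58 aligned bases. The brightest ANXA1 probe, at base 1209, shared no stretch as long as these and serves as the gene's representative. Its first bases repeat the last bases of the ANXA1 probe at base 1168.

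ANXA1 at 971, printed on 2 probes: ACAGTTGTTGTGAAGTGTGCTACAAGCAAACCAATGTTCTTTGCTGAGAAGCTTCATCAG
ANXA1 at 570: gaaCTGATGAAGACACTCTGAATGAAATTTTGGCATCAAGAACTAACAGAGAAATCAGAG
ANXA1 at 573: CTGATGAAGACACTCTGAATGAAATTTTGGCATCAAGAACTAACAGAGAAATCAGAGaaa
ANXA1 at 1209: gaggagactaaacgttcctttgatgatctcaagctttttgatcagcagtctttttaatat

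ANXA5 lies on chromosome 8 from 102387833 to 102420868 and had 2 kept probes. The reverse complement of the dimmer one, and not the probe as printed, lined up with a probe of ANXA4 at 41 of 53 bases, in capitals in the last pair of lines. The dimmer ANXA5 probe and the ANXA4 probe were thus written in opposite orientations, and the brighter ANXA5 probe serves as the representative.

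ANXA5, brighter probe: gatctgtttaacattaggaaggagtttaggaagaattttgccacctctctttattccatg
ANXA5, dimmer probe as printed: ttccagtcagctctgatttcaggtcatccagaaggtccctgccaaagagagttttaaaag
ANXA5, dimmer probe, reverse complement: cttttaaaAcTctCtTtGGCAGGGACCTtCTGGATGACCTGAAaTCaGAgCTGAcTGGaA
ANXA4 probe: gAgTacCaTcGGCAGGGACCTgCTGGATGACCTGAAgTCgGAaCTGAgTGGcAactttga

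The first question was whether the family differed between the parental breeds. ANXA1 and ANXA5 were lower in CR than in LW. ANXA1 was lower at all 9 of its probes, by 1.38-fold to 1.82-fold, and ANXA5 at its brighter probe by 1.64-fold. Across the family 12 of 34 probes passed the adjusted threshold in CR minus LW, 1 higher and 11 lower, where 26.5% of all kept probes passed (13.6% higher and 12.9% lower). The median difference of the 34 probes was −0.11 against 0.00 for all kept probes, and 6 of the 34 were above 0. ANXA1 supplied 9 of the 12 calls, so the count speaks for few genes.

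At the representative ANXA1 probe the LW animals ran from 9.37 to 10.40 with a median of 10.11, the CR animals from 8.83 to 9.99 with a median of 9.52, and the F1 animals from 8.61 to 10.17 with a median of 9.34. The groups overlapped, yet 9 of 12 LW animals lay above the highest CR animal and all 12 CR animals lay below the LW mean. The LW mean was 10.04 ± 0.30, the CR mean 9.52 ± 0.30 and the F1 mean 9.46 ± 0.47 (SD, n = 12 each), which gave CR minus LW a difference of −0.52 ± 0.14 (SE) with an adjusted p of 0.00664 in limma. The order was therefore LW above CR and F1, and CR and F1 did not differ beyond their spread, with a difference of −0.06 ± 0.14 for F1 minus CR.

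The 9 ANXA1 probes differed in how far apart they set the breeds. The pair with the same 60 bases gave −0.86 ± 0.17 and −0.85 ± 0.16 in CR minus LW, so repeat spots of 1 sequence returned nearly the same value. The smallest difference, −0.47 ± 0.10, came from the probe at base 573, and adjusted p-values over the 9 probes ran from 0.00013 to 0.00664 (limma). With group means removed, the 36 pairs of ANXA1 probes correlated over the 36 animals at a median r of 0.89 (0.64 to 0.97), which describes probes of the same arrays.

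At the representative ANXA5 probe the LW animals ran from 9.29 to 10.52 with a median of 9.998, the CR animals from 8.53 to 10.08 with a median of 9.34, and the F1 animals from 8.90 to 9.89 with a median of 9.41. Here 11 of 12 CR animals and all 12 F1 animals lay below the LW mean, the exception being 1 CR HS animal at 10.08. CR minus LW was −0.71 ± 0.15 (SE), adjusted p = 0.00088 in limma. The dimmer ANXA5 probe, written in the opposite orientation to the ANXA4 probe, showed 0.02 ± 0.06. Its correlation with the brighter probe was −0.23 over the 36 animals once group means were removed. Whether the dimmer probe reads the ANXA5 transcript at all was not tested. It is therefore not taken as a second reading of the gene, and the ANXA5 statement holds for the brighter probe.

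**Figure D1:**
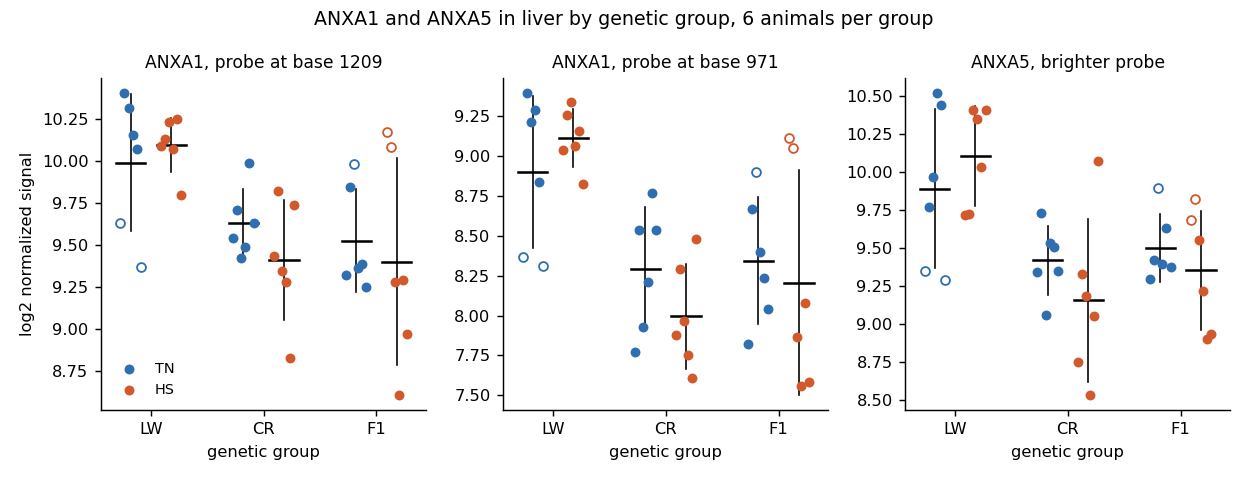
Log2 normalized signal of 2 ANXA1 probes and the brighter ANXA5 probe by genetic group. Each point is 1 animal at TN (blue) or HS (orange), horizontal lines are group means and vertical lines the SD (n = 6), and open points are the 5 animals that lay away from their breed. The LW points mostly lie above CR and F1, while the open LW points lie among the lowest of LW and the open F1 points among the highest of F1.

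The cross was then set against each parent, and ANXA1 and ANXA5 were again lower than in LW. All 9 ANXA1 probes were lower in F1 than in LW, by 1.28-fold to 1.66-fold, with adjusted p-values from 0.00117 to 0.00587 (limma), and ANXA5 at its brighter probe was lower by 1.49-fold, −0.57 ± 0.15 (SE), adjusted p = 0.0101 (limma). In all, 11 of 34 probes passed in F1 minus LW, every one of them lower, where 18.4% of all kept probes passed (9.13% higher and 9.24% lower). CR minus LW and F1 minus LW share the LW animals, so the second is not an independent repeat of the first. In F1 minus CR none of the 34 probes passed in limma, where 1.5% of all kept probes passed (0.759% higher and 0.746% lower). An unadjusted p under 0.05 was found for 1 of the 34 and for 12.5% of all kept probes (limma). The ANXA1 probes lay between −0.12 and 0.13 there, and the ANXA5 probes at 0.14 ± 0.15 and 0.02 ± 0.06.

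Against the mean of both parents, F1 again had no called member probe in limma, where 1.12% of all kept probes passed (0.659% lower). An unadjusted p under 0.05 was found for 7 of the 34 and for 15.2% of all kept probes (limma). The ANXA1 probes lay between −0.38 ± 0.11 and −0.12 ± 0.08 there, and the smallest adjusted p among them was 0.0731. This comparison turned on the 5 animals set apart. At the representative ANXA1 probe the 3 F1 animals among them held the 3 highest F1 values (10.17, 10.08 and 9.98) and the 2 LW animals held the 2 lowest LW values (9.63 and 9.37). Without the 5, the means were 10.15 ± 0.17 in LW (n = 10), 9.52 ± 0.30 in CR (n = 12) and 9.26 ± 0.33 in F1 (n = 9), and 10 member probes, all 9 of ANXA1 and the brighter one of ANXA5, were lower in F1 than the parental mean, at −0.65 to −0.29, where 17.0% of all kept probes passed. Without them 12 member probes passed in CR minus LW (33.0% of all kept probes), 13 in F1 minus LW (32.3%, the added ones being ANXA2 at base 495 and ANXA6) and 0 in F1 minus CR (2.39%; limma).

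The breed contrasts were also read slide by slide. Within slides, CR minus LW at the representative ANXA1 probe was below 0 on all 5 slides, from −0.78 to −0.17. F1 minus LW was below 0 on 4 of 5, from −0.96 to 0.24, the exception being slide 1 with 1 F1 animal. That animal was F1 HS replicate 1 (10.17), and LW TN replicate 1 (9.63) lay on the same slide. Both are among the 5 animals set apart. When slide 3 was left out, the calls fell from 12 to 7 in CR minus LW and from 11 to 2 in F1 minus LW, while the share of all kept probes called fell from 26.5% to 12.7% and from 18.4% to 3.52%. Each ANXA1 difference stayed below 0 there, at −0.77 to −0.37 in CR minus LW and −0.66 to −0.27 in F1 minus LW. ANXA5 kept its CR minus LW call throughout, while F1 minus LW was −0.47 without slide 3 (adjusted p = 0.125, limma) and −0.47 without slide 4 (adjusted p = 0.0690, limma). Leaving out any single array kept 10 to 12 calls in CR minus LW and 10 to 11 in F1 minus LW.

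Genes that mark other liver cells moved with the same breed contrasts. In CR minus LW, 7 of 9 macrophage markers were called lower, that is, below 0 and past the adjusted threshold (median of the list −0.83). Among them were CD163, the haemoglobin scavenger receptor (−1.16), and C1QB, a chain of complement C1q (−0.97). Of the neutrophil list all 4 kept genes were called lower (median −0.87). So were 7 of 9 of the endothelial list (−0.58) and 7 of 11 of the lymphocyte list (−0.46). The stellate and fibroblast list had 1 of 11 called lower (−0.23), and the cholangiocyte list 1 higher and 1 lower of 9. The hepatocyte list had 2 of 8 called lower (−0.01) and the erythroid list 0 of 3. Without regard to the threshold, 2 of 11, 5 of 9, 3 of 8 and 1 of 3 genes of these lists lay above 0. Of all kept probes 12.9% were called lower and 13.6% higher in this contrast. The called counts of the stellate and cholangiocyte lists lay near that share. The mean level of the 9 macrophage markers ran from 11.44 to 12.08 in LW, from 10.92 to 11.39 in CR and from 10.86 to 11.77 in F1, so LW and CR did not overlap. The other lists overlapped, the neutrophil level at 6.91 to 8.55 in LW and 6.36 to 7.34 in CR, the endothelial level at 9.71 to 10.30 and 9.37 to 9.90, and the lymphocyte level at 6.73 to 7.40 and 6.46 to 6.998. For F1 minus LW the counts called lower were 7 of 9 for macrophages and 4 of 4 for neutrophils. They were 5 of 9 for endothelium, 6 of 11 for lymphocytes and 3 of 11 for stellate cells. In that contrast 9.24% of all kept probes were called lower. In bulk liver, fewer cells of a type and less RNA per cell cannot be told apart, and the part of these cells in the ANXA1 and ANXA5 differences was not tested.

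**Figure D2:**
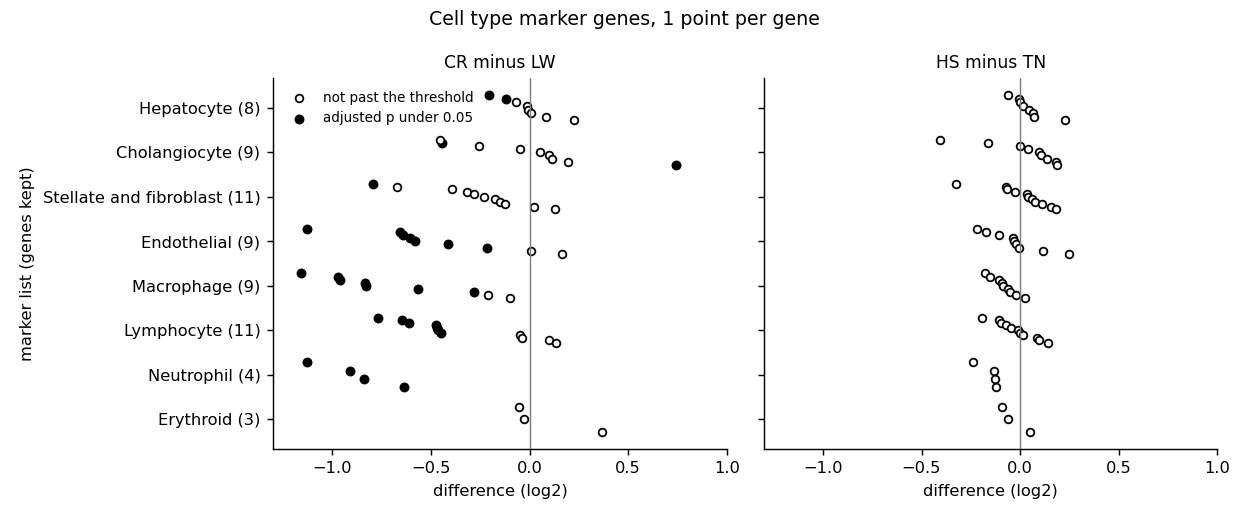
Difference in log2 signal for each kept marker gene, in CR minus LW (left) and HS minus TN (right), with 1 point per gene, grouped by cell type list. Filled points passed the adjusted threshold of 0.05. Macrophage, neutrophil, endothelial and lymphocyte genes lie mostly below 0 between the breeds, and no marker passed in HS minus TN.

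The genes whose representative probe followed ANXA1 most closely across the 36 animals, with group means removed, were looked up after the ANXA1 values had been seen. PLA2G4A, the cytosolic phospholipase A2 that releases arachidonic acid, came first with an r of 0.92, and TNFRSF21, a death-domain receptor (0.86), RCSD1, an actin-capping regulator (0.85), and HCLS1, a cortactin-like protein of blood cells (0.85), were also among the closest. Without the 5 animals the values of these genes were 0.83, 0.58, 0.63 and 0.72. Each of them was lower in CR than in LW, PLA2G4A at −0.68 ± 0.13 (adjusted p = 0.00026, limma). For ANXA5 the closest was NDN, a MAGE-family protein (r = 0.77, or 0.69 without the 5 animals).

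Heat stress was the study's own contrast. ANXA2 had the largest positive differences of the family in HS minus TN, 1.34-fold, 1.33-fold and 1.23-fold at its 3 brighter probes, and the one at base 1281 was the only member probe that passed. The call at this probe was known when the family was chosen, so it is described here and lends no support. In all 1 of 34 probes passed, where 0.859% of all kept probes passed (0.435% higher and 0.424% lower). The median difference of the 34 was 0.04 against 0.00 for all probes, and 24 of the 34 lay above 0. Without the 5 animals set apart 0 of 34 passed in limma (0.708% of all kept probes), the ANXA2 probe at base 1281 having 0.34 with an adjusted p of 0.0551.

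At base 1281 the TN animals ran from 11.90 to 12.93 with a median of 12.60 and the HS animals from 12.31 to 13.49 with a median of 13.07. Thus 13 of 18 HS animals lay above the highest TN animal, and 15 of 18 lay above the TN mean of their breed. The means were 12.57 ± 0.26 at TN and 12.999 ± 0.33 at HS (SD, n = 18 each), a difference of 0.42 ± 0.09 (SE) with an adjusted p of 0.0227 in limma.

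At base 495 the TN animals ran from 8.13 to 9.18 (median 8.61) and the HS animals from 8.34 to 9.75 (median 9.04), a difference of 0.41 ± 0.11 (SE) with an adjusted p of 0.0700 in limma. At base 965 they ran from 10.22 to 11.21 (median 10.63) and from 10.28 to 11.44 (median 10.999), a difference of 0.30 ± 0.10 with an adjusted p of 0.161 in limma. At each of these probes 14 of 18 HS animals lay above the TN mean of their breed. With the 5 animals set apart left out, base 495 had 0.29 (adjusted p = 0.146, limma) and base 965 had 0.25 (adjusted p = 0.237, limma). The 3 probes correlated with one another at 0.81 to 0.89 over the 36 animals once group means were removed. The dim probe named for ANXA2, near the detection limit, gave 0.08 ± 0.05. Its place and orientation on the transcript were not established, so it is not taken as a further reading of ANXA2 RNA. ANXA1 and ANXA5 had no called probe in this contrast, at −0.15 to 0.02 over the 9 ANXA1 probes and −0.07 and −0.04 at the ANXA5 probes. Without the 5 animals set apart the ANXA1 probes lay at −0.29 to −0.05, and none was past the adjusted threshold (smallest adjusted p 0.0586, limma). Of these 9 probes, which are not separate readings, 8 had an unadjusted p under 0.05 (limma). The share of all kept probes at that level without the 5 animals is not given here. ANXA6 had 0.01 ± 0.09.

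By breed, the difference at base 1281 came to 0.26 for LW, 0.28 for CR and 0.74 for F1 (each ± 0.15, SE). The F1 animals ran from 11.90 to 12.57 at TN and from 12.31 to 13.49 at HS, and 3 of the 5 animals set apart held the lowest F1 TN value and the 2 highest F1 HS values. The interaction of breed with temperature was not past the threshold at this probe (adjusted p = 0.995, limma F test, unadjusted p = 0.0575). It passed at none of the 34 and at 0% of all kept probes. An unadjusted p under 0.05 was found for 1 of the 34 and for 3.74% of all kept probes (limma F test). So the larger value in F1 was not shown to differ from those of the parents. Within each breed taken alone 0 of 34 passed in limma, against 0% of all kept probes within LW and CR and 0.00893% within F1. At an unadjusted p under 0.05 lay 1, 3 and 5 of the 34 in LW, CR and F1 (limma). The shares of all kept probes at that level were 5.12%, 7.40% and 9.31%. HS minus TN at base 1281 was above 0 on all 5 slides, from 0.21 to 0.65. Leaving out slide 1, 2, 4 or 5 gave 0.39, 0.40, 0.38 and 0.46 with adjusted p-values of 0.0672, 0.147, 0.159 and 0.0598 (limma), past the threshold in none of them, while leaving out any single array kept the call.

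**Figure D3:**
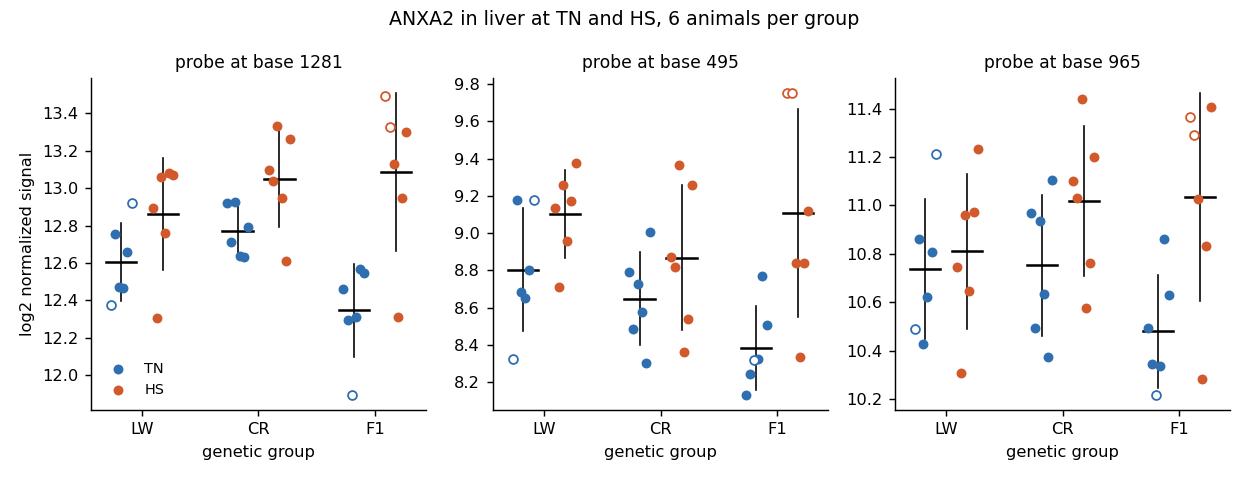
Log2 normalized signal of the 3 brighter ANXA2 probes at TN (blue) and HS (orange) in each genetic group, with 1 point per animal, horizontal lines for group means, vertical lines for the SD (n = 6), and open points for the 5 animals that lay away from their breed. The HS mean lies above the TN mean in each breed at each probe, with the widest gap in F1, and the points of TN and HS overlap in all breeds at all 3 probes.

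S100A10, which lies on chromosome 4 from 97261752 to 97272517, had 6 kept probes and none passed in HS minus TN (0.01 to 0.12). At its representative probe the TN animals ran from 11.70 to 12.53 (median 12.26) and the HS animals from 11.65 to 12.68 (median 12.24), a difference of 0.04 ± 0.09. ANXA2 and S100A10 were not shown to vary together over the 36 animals, with group means removed. Pearson r was −0.22 (permutation p = 0.352, adjusted 0.616) and Spearman rho −0.08 (permutation p = 0.663, adjusted 0.928). Without the 2 animals farthest from the median of ANXA2, r was 0.04, and within slides 2 to 5 it ran from −0.60 to 0.15. This was 1 of 7 relations of ANXA2 with the other members, of which r ran from −0.22 to 0.26, and none passed (two-sided permutation test within groups, 100000 resamples).

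The 5 genes most like ANXA2 over the 36 animals were KRT8, an intermediate filament protein of hepatocytes (r = 0.70), HSPB1, a small heat shock protein (0.61), MEGF9, a membrane protein (0.61), CAV2, a caveolar coat protein (0.60), and RAD23B, a ubiquitin receptor of nucleotide excision repair (0.60). The measure was Pearson's r of the representative probes after group means were removed, over 10482 symbols. Without the 5 animals the values were 0.63, 0.60, 0.48, 0.58 and 0.49. In HS minus TN none of the 5 passed the threshold, with 0.26 ± 0.11 for KRT8 and 0.05 ± 0.09 for HSPB1.

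ANXA4, an annexin of epithelial cells (chromosome 3, 72623311 to 72654591), lay above 0 in HS minus TN at all 3 of its probes (0.11 to 0.17), none of them past the threshold. At its representative probe the TN animals ran from 9.79 to 10.48 (median 10.15) and the HS animals from 9.95 to 10.70 (median 10.32), an overlap over most of the range, with an adjusted p of 0.186 in limma. Between breeds its probes lay from −0.12 to 0.08 in CR minus LW.

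ANXA7, which binds membranes of secretory vesicles (chromosome 14, 76205238 to 76234646), showed 0.11 and 0.12 at its 2 kept probes in HS minus TN, with adjusted p-values of 0.204 and 0.237 (limma). At the dimmer of them CR was higher than LW, by 0.17 ± 0.06 with an adjusted p of 0.0253 in limma, the only call above 0 in that contrast. The LW animals ran from 7.90 to 8.21 (median 7.98) and the CR animals from 7.83 to 8.49 (median 8.16), with 5 of 12 CR animals above the highest LW animal. The brighter probe gave 0.08 ± 0.05, from LW animals at 11.58 to 11.88 (median 11.82) and CR animals at 11.54 to 12.08 (median 11.90), so the probes of this gene differ in their call. Without CR TN replicate 3 or CR HS replicate 4 the adjusted p was 0.0536 and 0.0550, at 0.15 in both, and without slide 3 or 5 it was 0.197 and 0.0788.

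ANXA6, which has a doubled annexin core (chromosome 16, 71857229 to 71913723), had 1 probe. The LW animals ran from 6.79 to 7.61 (median 7.17), the CR animals from 6.48 to 7.27 (median 6.83) and the F1 animals from 6.61 to 7.74 (median 7.05). CR minus LW was −0.29 ± 0.11, adjusted p = 0.0469 in limma, a call that sat at the threshold. It was lost without any one of 18 arrays (adjusted p up to 0.0952, difference −0.29 to −0.24): LW TN replicates 2 and 4, LW HS 2 to 6, CR TN 1, 3 and 5, CR HS 1 to 5, F1 TN 2 and 6, and F1 HS 5. It was also lost without slide 1, 3 or 4 and under 5 processing alternatives, at −0.33 to −0.22 over all of these.

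S100A10 had 1 call between breeds. At its dimmest probe the LW animals ran from 8.18 to 9.23 (median 8.72) and the F1 animals from 7.95 to 8.93 (median 8.38), and F1 minus LW was −0.32 ± 0.11, adjusted p = 0.0390 in limma. The other 5 probes of the gene lay from −0.18 to −0.06 in that contrast and did not pass. The call was lost without any one of 13 arrays (adjusted p 0.0513 to 0.0779, difference −0.32 to −0.27): LW TN replicates 2 and 3, LW HS 1 to 4, F1 TN 1, 5 and 6, and F1 HS 1, 3, 5 and 6. It was also lost without slide 1, 2, 3 or 5 and under 3 processing alternatives, at −0.35 to −0.23 over all of these.

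ANXA11, which tethers RNA granules to lysosomes (chromosome 14, 81835205 to 81879565), had no called probe. Its 7 kept probes, of which 1 pair held the same 60 bases and 2 further pairs overlapped, lay between 0.00 and 0.07 in HS minus TN and between −0.11 and −0.0049 in CR minus LW, and none passed in any comparison made here. The representative probe ran from 12.33 to 12.94 over the 36 animals, with means of 12.63 in each of LW, CR and F1.

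**Figure D4:**
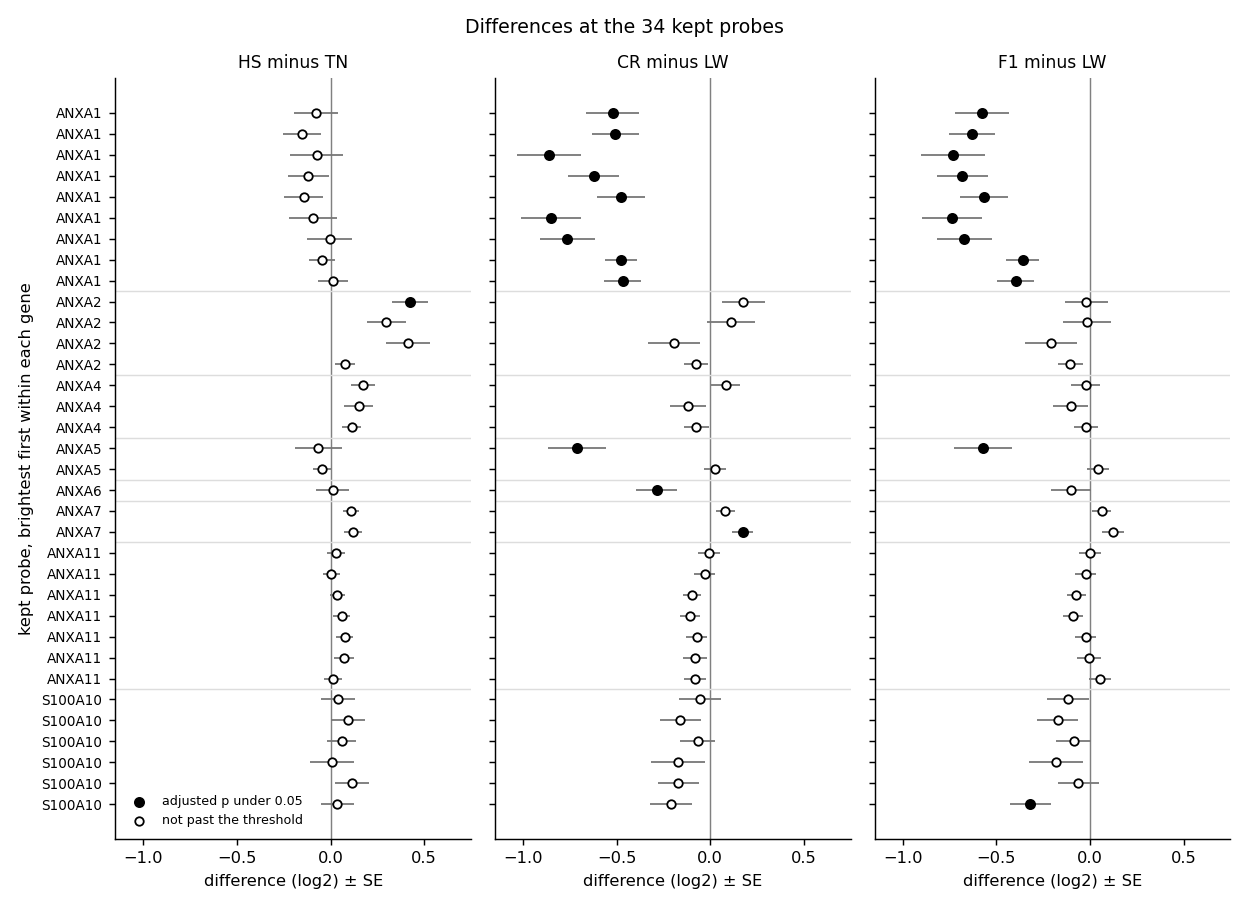
Difference in log2 signal ± SE at each of the 34 kept probes, brightest first within a gene, for HS minus TN, CR minus LW and F1 minus LW. Filled points passed an adjusted p of 0.05. The 9 ANXA1 probes and the brighter ANXA5 probe lie below 0 in both breed contrasts and near 0 in HS minus TN, and the ANXA2 probes lie above 0 in HS minus TN.

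The relatives and partners of the family on the array were read from lists, by the brightest kept probe of each gene. Of the other annexins ANXA8, ANXA9, ANXA10 and ANXA13 were kept and none passed in any contrast, with differences of −0.15 to 0.32 in CR minus LW. Of 14 other S100 genes, 6 were called lower in CR than in LW: S100A1, S100A2, S100A8, S100A9, S100A12 and S100A16. The median over the list was −0.24, and 12.9% of all kept probes were called lower in this contrast. S100A8, S100A9 and S100A12 are the calcium-binding proteins of neutrophils and are also in the neutrophil list. S100A2 differed most, with −1.14 in CR minus LW and −1.75 in F1 minus LW. Of the list, 5 were called lower in F1 than in LW, where 9.24% of all kept probes were called lower.

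Of 23 partners and plasminogen system genes, 4 were called higher and 8 lower in CR than in LW, against 13.6% and 12.9% of all kept probes. The number called higher lay near the share over all probes. PLAUR, the urokinase receptor, was higher by 0.34 and AHNAK, a scaffold that binds the ANXA2 complex, by 0.44, while PLG, the plasminogen precursor made by hepatocytes, was lower at −0.19 and EZR, a linker of membrane and actin, at −0.38. In F1 minus LW 2 were called higher and 5 lower, against 9.13% and 9.24% of all kept probes. In HS minus TN no gene of these 3 lists or of the marker lists passed in limma. AHNAK had 0.24 with an adjusted p of 0.293 (limma) there.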

How the data were processed

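Liver RNA of 36 pigs was hybridised to 1-colour Agilent arrays. For every array the authors deposited its scanner table, for which the submitters' processing notes name Agilent Feature Extraction 10.10.1.1 and whose spot intensity values are on a linear scale and not normalized between arrays, with flags for probes well above background. The authors also deposited a table of log2 values, quantile normalized per their methods, which was used as an alternative.

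The median spot intensity was log2 transformed and quantile normalized over 60306 non-control spots (the study names the reverse order), 107 non-uniform spots were set as missing, and a probe was kept if 6 or more of the 36 arrays called it well above background. The median signal per array was 70.0 to 92.0 against a background of 18.0 to 25.0, and the number of arrays limits the precision. Probes were named through RefSeq (Sscrofa11.1) by transcript accession (9604), gene number (1767), symbol (14378) or synonym (197), and 34360 had no name there. All probes of the members were used, and the brightest kept probe represents a gene.

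Moderated two-sided tests used limma 3.58.1 under R 4.3.3 (linear model and empirical Bayes, breed and temperature as terms, Benjamini-Hochberg over 44796 probes, threshold 0.05), and the interaction with a moderated F test on 6 group means. The scripts were tested on simulated data. Groups came from the labels, and the litter, pen and slaughter day of the study's own model were not used here. Alternatives covered signal column, background correction, order of normalization, filter, slide, array weights, spread model, 1 value per gene and left-out animals or slides. The members, gene lists and marker lists were chosen with earlier results of these data known. Not every gene of the likeness and partner lists is reported here.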

Additional observations from a re-analysis of the deposited data

Results flagged for a closer look

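The representative probes of the 8 genes were checked in each of the 6 groups for an animal far from the other 5, which is 48 sets of values. Chance alone would point to about 1 in 20 of them (2.4), and 1 was found. In F1 TN the S100A10 value of replicate 5 was 11.70, against 12.25 to 12.53 in the other 5 animals, a gap of 0.659 of the whole range which is above Dixon's critical value for 6 animals. The same animal was the lowest of its group at 4 of the 5 other S100A10 probes.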

How the results depend on the processing

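The HS minus TN count of 1 fell to 0 with the processed signal scaled to the 75th percentile (ANXA2 at base 1281 at 0.38, adjusted p = 0.0590 in limma), with 1 value per gene and without the 5 animals set apart. It ran from 0 to 2 when arrays or slides were left out (2 without F1 HS replicate 4 or CR HS replicate 4). CR minus LW had 12 calls. It had 4 genes with 1 value per gene (ANXA1, ANXA5, ANXA6 and ANXA7), where there are fewer features to call, and 7 to 13 calls with arrays or slides left out. F1 minus LW had 11 calls, 2 genes with 1 value per gene (ANXA1 and ANXA5) and 2 to 11 calls with arrays or slides left out. F1 against the parental mean had 0 calls, 4 with array weights, 10 without the 5 animals, and 0 to 3 with arrays or slides left out (3 without F1 HS replicate 1 or 2 or slide 1, and 1 without LW TN replicate 1, F1 TN replicate 3 or CR HS replicate 5). F1 minus CR and the interaction had 0 calls throughout. The correlation of ANXA2 with S100A10 ran from −0.32 to 0.033 with arrays or slides left out, above 0 without F1 HS replicate 4 or slide 3, and never passed.

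Of 1329 values of 26 named probe differences under the alternatives, 1259 kept their side of the threshold, 68 lost the call, 2 gained it and 0 changed sign. For none of these changes was the cause tested. The ANXA1 probes lost calls only when slide 3 was left out (3 in CR minus LW and 7 in F1 minus LW), and the brighter ANXA5 probe lost F1 minus LW without slide 3 or slide 4. No paired analysis was possible because the labels do not give the litters that would link animals across the temperatures. Depth has no count here, so dim probes such as the ANXA2 probe near background give no more than a signal above it.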
